A study of Mus musculus with 27 samples.

Results

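The genes described here encode mitogen-activated protein (MAP) kinases and the MAPKAP kinases that act below them. They were Mapk3, Mapk6, Mapk8, Mapk9, Mapk10, Mapk11, Mapk14, Mapkapk2 and Mapkapk3, taken by gene symbol from a table of 45070 genes, in which all 9 were found. The samples were wild type bone marrow-derived macrophages (BMDMs), primary cells grown in culture from the marrow of male C57/BL6 mice aged 6 to 8 weeks. All of them, the untreated ones included, were first kept for 1 h in DMSO, a solvent that served as vehicle for inhibitors in other samples. The untreated samples then received no stimulus, and their labels give no time. The others received 10 ng/ml of lipopolysaccharide (LPS), a molecule of bacterial outer membranes that TLR4 senses, or 10 ng/ml of the cytokine interleukin-4 (IL-4). These stimulated samples were taken 0.5, 1, 2 or 4 h later. There were 27 samples in 9 groups of 3 replicates. Chromatin-associated RNA was sequenced, a fraction rich in transcripts that are still being made, so the values follow transcription more closely than the mature mRNA pool and do not report kinase protein or kinase activity.

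MAP kinases are the last tier of a relay of 3 kinase layers, in which a MAP3K phosphorylates a MAP2K and the MAP2K phosphorylates the MAP kinase. In macrophages TLR4 signals through the kinase Map3k7 and its adaptors to the p38, JNK and ERK branches, which drive the transcription and stabilise the mRNAs of inflammatory cytokines. Mapk14 and Mapk11 encode p38α and p38β. Mapk8, Mapk9 and Mapk10 encode JNK1, JNK2 and the mainly neuronal JNK3. Mapk3 encodes ERK1, and Mapk6 encodes ERK3, an atypical MAP kinase. Mapkapk2 and Mapkapk3 encode MK2 and MK3, which p38 phosphorylates and which act on RNA-binding proteins that control cytokine mRNAs.

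The values are normalised read counts, scaled by the authors on invariant genes and rounded, so the sequencing depth behind each sample is unknown. Summed per sample they came to 2469768 to 2790981 without LPS (n = 15) and to 3571492 to 4058199 with it (n = 12). The 7 macrophage markers summed to between 9579 and 17755 per sample, with none at 0 throughout. Those of T cells summed to at most 3, of B cells to at most 6, of mast cells to at most 3, of neutrophils to at most 28, of dendritic cells to at most 96 and of fibroblasts to at most 207. Cd3e, Cd3g, Ly6g and Fcer1a were listed at 0 in every sample. Tnf averaged 7 in untreated samples and 2145 after 0.5 h of LPS, and Socs1 1.00 in untreated samples and 133 after 0.5 h of IL-4. Fewer cells of a type and less RNA per cell cannot be told apart in such bulk samples.

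In untreated BMDMs the p38α and MK2 genes gave the highest mean values per length and the p38β and JNK3 genes the lowest. Whether reads were counted over exons or whole genes was not stated, so levels between genes were compared per kb of the longest annotated transcript and per kb of the whole gene. Per kb of transcript the untreated level was 235 ± 6.64 normalised read counts for Mapk14 (SD, n = 3) and 228 ± 35.2 for Mapkapk2, which did not differ beyond their spread. Mapkapk3 followed at 97.2 ± 3.38. Next came Mapk8 at 46.7 ± 4.84, Mapk3 at 44.4 ± 5.12 and Mapk9 at 35.5 ± 2.31, of which the first pair overlapped. Mapk6 stood at 20.9 ± 2.07, Mapk11 at 0.682 ± 0.472 and Mapk10 at 0.0995 ± 0.0861. Per kb of the whole gene Mapk14 (15.6 ± 0.441) and Mapkapk2 (14.8 ± 2.29) again had the highest means and Mapk11 and Mapk10 the lowest. There Mapk3, the shortest of the 9 genes, came next at 12.7 ± 1.47, ahead of Mapkapk3 at 7.83 ± 0.272. On this measure Mapk3 overlapped Mapkapk2, so their order was not settled.

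Of the 9 genes, 8 reached 10 normalised read counts in at least 3 samples and were tested. Mapk10 (chromosome 5, 102908547 to 103211334 on the minus strand, GRCm38) did not. It was listed at 0 to 5 in 26 samples and at 13 in replicate 2 of IL-4 at 0.5 h, and nothing is read from it. Mapk11 passed only through 3 LPS samples, so its count among the genes that changed was partly fixed by the filter. The test was limma on log2(value + 1), with Benjamini-Hochberg adjustment over all 13901 tested genes, and a gene was called at an adjusted p below 0.05. Nothing in the labels says that replicates came from separate mice or cultures, so p-values measure the spread between these samples.

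**Figure D1:**
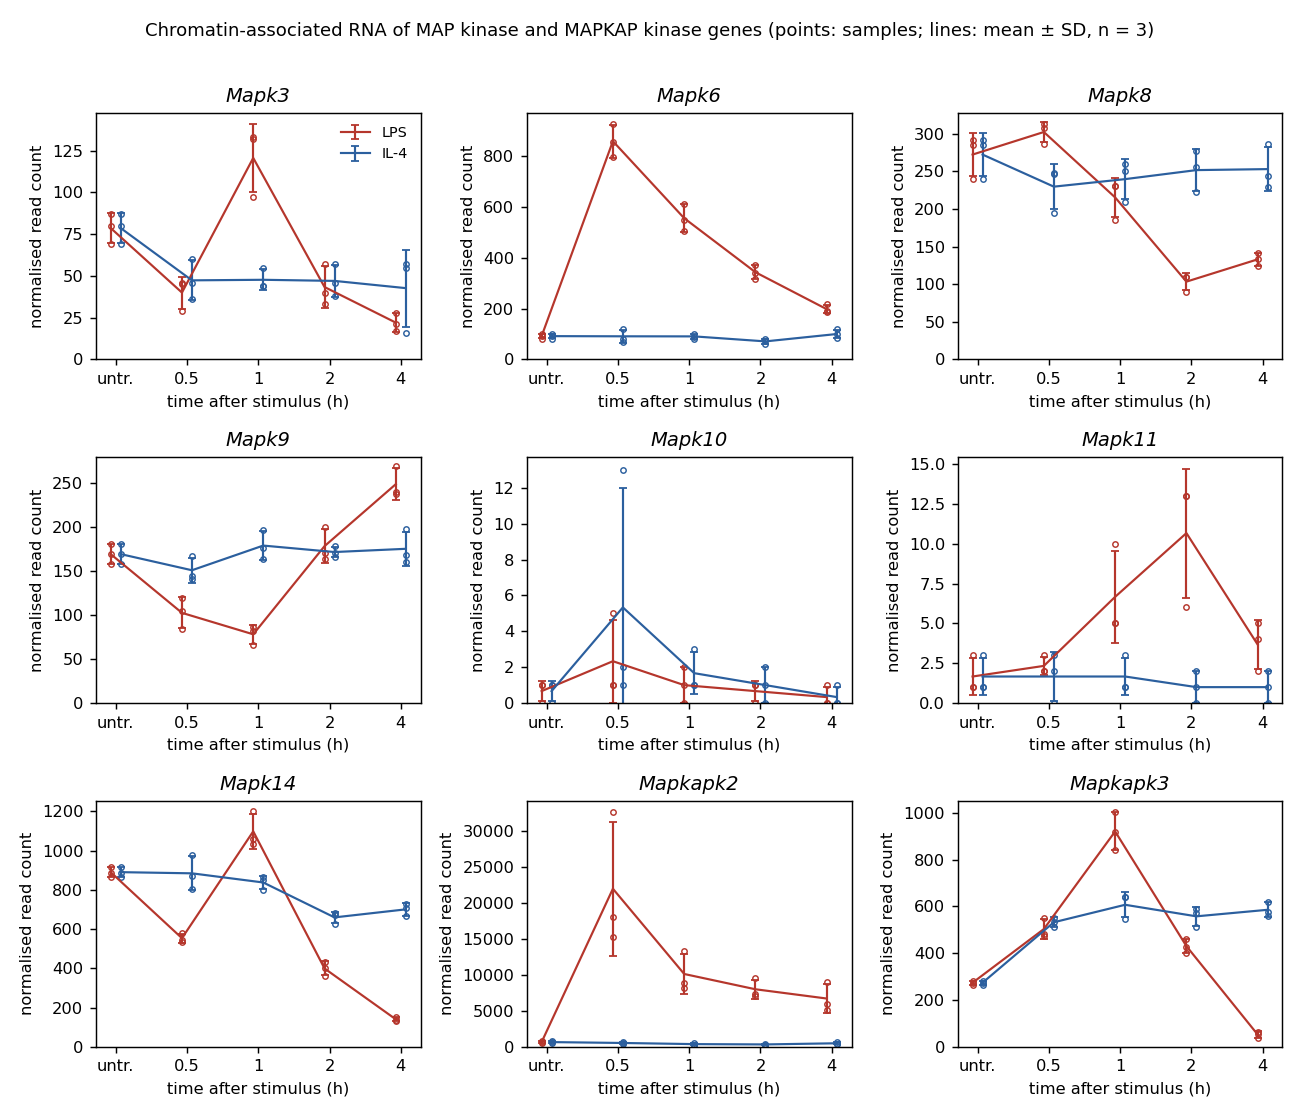
Normalised read counts of the 9 genes in every sample (vertical axes, each from 0) against time after LPS (red) or IL-4 (blue), spaced evenly with the same 3 untreated samples at the left of both lines; circles are samples, lines join group means and bars are 1 SD (n = 3), cut at 0. Mapkapk2 and Mapk6 were highest at 0.5 h of LPS, Mapk3, Mapk14 and Mapkapk3 at 1 h, and Mapk9 at 4 h, and of the IL-4 lines Mapkapk3 is the one that stays above the untreated samples, between 510 and 638.

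LPS changed all 8 tested genes over its course, against 87.6% of all tested genes, so a change of some kind was the rule in the table. The direction and timing differed from gene to gene. At 0.5 h 3 of the 8 were higher than untreated (Mapk6, Mapkapk2 and Mapkapk3, background 19.6%) and 3 lower (Mapk3, Mapk9 and Mapk14, background 34.4%). At 1 h 6 were higher, Mapk11 among them (background 24.8%) and Mapk8 and Mapk9 were lower (background 39.0%). At 2 h 4 were higher (Mapk6, Mapk11, Mapkapk2 and Mapkapk3, background 26.9%) and Mapk3, Mapk8 and Mapk14 lower (background 39.0%). At 4 h Mapk6, Mapk9 and Mapkapk2 were higher (background 25.9%) and Mapk3, Mapk8, Mapk14 and Mapkapk3 lower (background 37.6%). The median log2 fold change of the 8 was 0.27, 1.07, 0.36 and -0.24 at the 4 times in order, and that of all tested genes was -0.24, -0.30, -0.29 and -0.26. With libraries rescaled to equal totals the medians of all genes were -0.73, -0.86, -0.91 and -0.84, and with median-of-ratios scaling -0.01, -0.05, -0.06 and -0.04. The share of higher among all called genes moved with it: at 0.5 h it was 36.3% as deposited, 18.3% with equal totals and 48.1% with median-of-ratios scaling, and at 4 h 40.7%, 23.7% and 49.2%. The 8 genes split 2 higher and 4 lower at 0.5 h with equal totals, with 4 and 3 at 1 h, then 3 and 4 at 2 h, and finally 2 and 4 at 4 h. Of all tested genes 63.9%, 71.3%, 74.4% and 73.6% were called at these times with equal totals. Results whose direction depended on the scaling are named below.

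At 1 h the share was 38.9% as deposited, 21.8% with equal totals and 48.7% with median-of-ratios scaling, and at 2 h 40.8%, 22.9% and 49.3%. Without replicate 2 or without replicate 3 the count called at 1 h was 5 of 8 in place of 8, and the background went from 63.8% to 49.4% and 49.7%.

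The courses turned at different times. All 8 genes differed between 0.5 and 1 h of LPS, against 49.7% of tested genes, with 4 higher and 4 lower at 1 h. From 1 to 2 h 6 differed (background 43.3%), and 5 of these fell. From 2 to 4 h 6 differed (background 22.9%), and again 5 fell. Between 0.5 and 4 h 7 differed (background 63.0%), of which Mapk9 rose and 6 fell. Without replicate 2 or 3 the counts were 5 and 4 from 0.5 to 1 h, and 3 and 3 from 2 to 4 h. The share of all tested genes called was then 34.5% and 33.2% from 0.5 to 1 h, and 8.78% and 8.02% from 2 to 4 h.

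**Figure D2:**
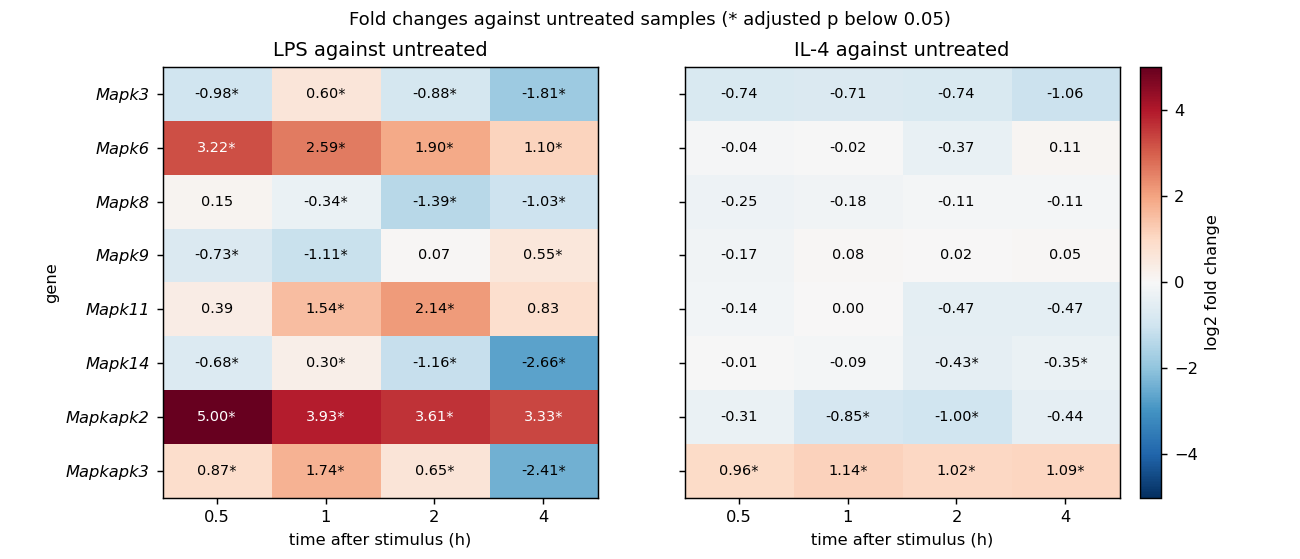
Log2 fold change against the 3 untreated samples for the 8 tested genes (rows) at 4 times (columns) after LPS (left) and IL-4 (right), with colour from -5 (blue) to 5 (red); asterisks mark an adjusted p below 0.05 in limma (n = 3 per group). The largest value is 5.00 for Mapkapk2 at 0.5 h of LPS and the lowest -2.66 for Mapk14 at 4 h of LPS, and Mapkapk3 is the only row with an asterisk at all 4 IL-4 times. The asterisks of Mapk11 are partly fixed by the filter, which it passed only through LPS samples.

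The promoters of the 2 genes that rose most at 0.5 h of LPS and of the 2 that fell most by 4 h are shown, chosen by these values. RefSeq windows of 250 bases before to 50 bases from the annotated start (GRCm38.p6) were found for 8 of the 9 genes, all but Mapk3. Each line gives the 130 bases before and the first 20 bases from the start, read along the gene, at chr1:131097824-131097973, chr9:75409997-75410146, chr9:107289858-107290007 (all minus strand) and chr17:28691212-28691361 (plus strand). Capitals mark TGACG, the half-site of the cAMP response element, and GGAAATTCC, a match to GGAANTTCC, a short form of the κB motif added to the search after the Mapk6 sequence had been seen.
Mapkapk2: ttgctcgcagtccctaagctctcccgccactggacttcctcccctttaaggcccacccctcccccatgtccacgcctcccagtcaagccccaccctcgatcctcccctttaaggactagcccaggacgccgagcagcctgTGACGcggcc
Mapk6: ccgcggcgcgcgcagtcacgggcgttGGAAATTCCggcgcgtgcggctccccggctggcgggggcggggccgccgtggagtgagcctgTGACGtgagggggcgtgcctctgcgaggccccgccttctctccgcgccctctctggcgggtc
Mapkapk3: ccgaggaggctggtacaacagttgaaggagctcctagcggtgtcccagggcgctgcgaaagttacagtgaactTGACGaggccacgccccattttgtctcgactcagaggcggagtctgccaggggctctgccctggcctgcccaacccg
Mapk14: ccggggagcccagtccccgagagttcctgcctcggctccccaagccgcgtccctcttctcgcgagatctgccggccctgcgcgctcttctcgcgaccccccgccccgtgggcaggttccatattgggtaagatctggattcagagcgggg

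On either strand of the full windows, TGACG or its complement was found in 7 of the 8 genes, all but Mapk14, and in 20.8% of 32851 windows of the same length. It began 10 bases after the start in Mapkapk2, 42 bases before it in Mapk6 and 57 bases before it in Mapkapk3. GGAANTTCC was found in Mapk6 alone of the 8, 104 to 96 bases before the start, and in 0.928% of all windows. The full element TGACGTCA, which contains the half-site, was found in Mapk10 alone and in 1.79% of windows. The longer κB motif (4.51% of windows), the AP-1 motif TGANTCA (7.81%), the CArG box (1.63%) and TTCNNNGAA, a motif of STAT factors (8.3%), were found in none of the 8 windows, and GGGCGG in 6 of the 8 (35.7%). Windows at a second annotated start of Mapk6, Mapk8, Mapk10, Mapk14 and Mapkapk3 were searched as well and are not in these counts. That of Mapk14 held a TTCNNNGAA match 232 to 224 bases before its start, that of Mapk6 held GGGCGG, and the other 3 held none of the motifs. Genes with the half-site went both up and down with LPS, and a match is a run of letters and not a measured binding site.

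The MK2 gene Mapkapk2 showed the largest response of the family, a rise of more than an order of magnitude within 0.5 h of LPS. It lies on chromosome 1, 131053700 to 131097843, on the minus strand. The untreated samples held 761, 560 and 640 normalised read counts in replicates 1, 2 and 3. After 0.5 h of LPS they held 32664, 15346 and 18049, after 1 h 13363, 8900 and 8168, after 2 h 9545, 7122 and 7374, and after 4 h 9076, 5933 and 5162. Every LPS sample was far above every untreated sample, and replicate 1 was the highest of the 3 in all 9 groups. The group means were 654 ± 101 untreated and 22020 ± 9317 at 0.5 h (SD, n = 3), a 33.7-fold ratio. On the log2 scale the difference was 5.00 (SE 0.27, limma adjusted p = 8.76e-10), which ranked 80 from the top among the 13901 genes. It was 3.93 at 1 h, 3.61 at 2 h and 3.33 at 4 h (limma adjusted p = 3.21e-08 at 4 h, where the means differed 10.3-fold). The fall from 0.5 to 1 h was 1.07 on the log2 scale in size (SE 0.27, limma adjusted p = 0.00399). The later steps, -0.32 from 1 to 2 h and -0.28 from 2 to 4 h, did not pass the test, and those groups overlapped. Within each replicate number the values fell at both steps. In a fit blocked on replicate number the step from 1 to 2 h passed (limma adjusted p = 0.0392).

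An annotated pseudogene of 94 bases, Gm25549 (chromosome 1, 131073658 to 131073751, minus strand), lies in an intron of Mapkapk2 on the same strand. It held 3, 0 and 1 normalised read counts untreated, 80, 35 and 39 after 0.5 h of LPS and 18, 10 and 10 after 4 h. Its values thus rose with those of its host gene, and replicate 1 was again the highest. Gm25549 passed the filter only through LPS samples, so no test of its rise is read. Intronic reads of Mapkapk2 and transcripts of Gm25549 cannot be told apart in this table. In the other direction, IL-4 lowered Mapkapk2. The IL-4 samples held 671, 487 and 434 at 0.5 h, then 519, 312 and 285 at 1 h, then 409, 304 and 275 at 2 h, and finally 640, 404 and 425 at 4 h. All samples at 1 and 2 h were below all untreated samples, while those at 0.5 and 4 h overlapped them and were called lower in a fit blocked on replicate number but not without the block. The log2 difference was -0.85 at 1 h (SE 0.25, limma adjusted p = 0.0254) and -0.996 at 2 h (SE 0.25, limma adjusted p = 0.00834), with means of 329 ± 70.5 at 2 h. Both calls were lost without replicate 2 (limma adjusted p = 0.218 and 0.0982) and without replicate 3 (limma adjusted p = 0.266 and 0.125).

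The MK3 gene Mapkapk3, the closest relative of Mapkapk2, took another course: a rise to 1 h of LPS, a fall far below the untreated level by 4 h, and a lasting rise under IL-4. It lies on chromosome 9, 107254927 to 107289877, on the minus strand. Untreated samples held 274, 264 and 283 normalised read counts. LPS samples held 483, 552 and 474 at 0.5 h, then 841, 916 and 1003 at 1 h, then 462, 400 and 428 at 2 h, and finally 63, 56 and 37 at 4 h. Each of these groups stood apart from the untreated samples, above it up to 2 h and below it at 4 h. The mean went from 274 ± 9.5 to 920 ± 81.1 at 1 h, a log2 difference of 1.74 (SE 0.16, limma adjusted p = 1.72e-07). At 4 h it was 52.0 ± 13.5, a difference of -2.41 (SE 0.16, limma adjusted p = 2.71e-09) or 5.26-fold. The step from 2 to 4 h was -3.06 on the log2 scale (limma adjusted p = 8.38e-09), rank 22 from the lowest among 13901 genes. The rise at 2 h, 0.65 as deposited, was -0.01 with equal totals (limma adjusted p = 0.958), and that at 0.5 h, 0.87 as deposited, was 0.36 (limma adjusted p = 0.0546).

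Under IL-4 Mapkapk3 was the one gene of the 8 that was called higher. Its samples held 535, 551 and 510 normalised read counts at 0.5 h, then 638, 638 and 544 at 1 h, then 589, 573 and 510 at 2 h, and finally 559, 620 and 577 at 4 h. All 12 were above all 3 untreated samples, and neighbouring times did not differ beyond the test. The log2 difference from untreated was 0.96 at 0.5 h (SE 0.08, limma adjusted p = 2.42e-06), 1.14 at 1 h, 1.02 at 2 h and 1.09 at 4 h, close to a 2.14-fold ratio of means at 4 h. Set directly against LPS at the same time, LPS exceeded IL-4 by 0.60 at 1 h (SE 0.13, limma adjusted p = 0.000391) and lay below it by 3.50 at 4 h (limma adjusted p = 9.41e-17), and at 0.5 h the difference of -0.08 did not pass the test. At 2 h LPS was below IL-4, with a difference of -0.37 (SE 0.13, limma adjusted p = 0.0163), which was lost with median-of-ratios scaling (-0.10, adjusted p = 0.534) and without replicate 2 (-0.30, adjusted p = 0.21).

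The ratio of Mapkapk2 to Mapkapk3 within a sample does not depend on how libraries were scaled. Its log2 was between 1.08 and 1.47 in untreated samples, between 3.02 and 7.15 in the 12 LPS samples and between -1.03 and 0.33 in the 12 IL-4 samples. LPS moved the mean by 3.75 and IL-4 by -1.70, in opposite directions. In both courses every stimulated sample lay outside the untreated range (2-sided exact permutation test, adjusted p = 0.00879 over 8 tests). The unadjusted p was 0.0044 in both, the smallest that this 2-sided test allows here. Such a ratio shows unequal change and not which gene changed.

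**Figure D3:**
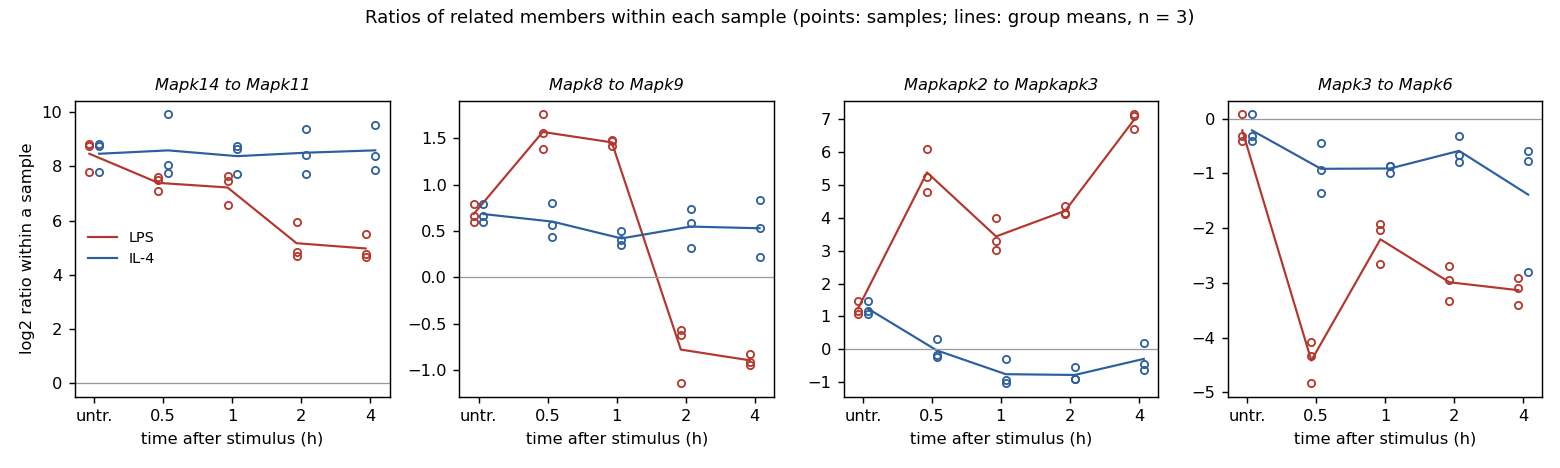
Log2 ratio of 2 related genes within each sample (vertical axes) against time after LPS (red) or IL-4 (blue), spaced evenly; circles are samples, lines join group means (n = 3) and grey lines mark equal counts, not corrected for gene length. The Mapkapk2 to Mapkapk3 ratio lies between 3.02 and 7.15 after LPS and between -1.03 and 0.33 after IL-4, and the Mapk8 to Mapk9 ratio lies above its untreated range at 0.5 and 1 h of LPS and below it at 2 and 4 h.

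The p38α gene Mapk14 went down, up and down again under LPS. It lies on chromosome 17, 28691342 to 28748405, on the plus strand. Untreated samples held 917, 867 and 887 normalised read counts. LPS samples held 535, 546 and 580 at 0.5 h, then 1036, 1201 and 1058 at 1 h, then 433, 362 and 403 at 2 h, and finally 135, 151 and 134 at 4 h. No group overlapped the untreated samples or its neighbours in time. The mean was 890 ± 25.2 untreated and 140 ± 9.54 at 4 h, a log2 difference of -2.66 (SE 0.10, limma adjusted p = 6.24e-12) or 6.36-fold. At 0.5 h the difference was -0.68 (limma adjusted p = 5.2e-05), and from 0.5 to 1 h the values rose by 0.98 on the log2 scale (limma adjusted p = 1.67e-06). The small excess over untreated at 1 h, 0.30 (SE 0.10, limma adjusted p = 0.0193), became -0.28 with equal totals and did not pass the test without replicate 2 (0.22, limma adjusted p = 0.24) or without replicate 3 (0.32, limma adjusted p = 0.12).

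Within an intron of Mapk14 and on its strand lies Gm4356, an annotated pseudogene of 479 bases (chromosome 17, 28726226 to 28726704). It held 10, 9 and 10 normalised read counts untreated, 1, 5 and 5 after 0.5 h of LPS, 22, 12 and 12 after 1 h and 0, 3 and 1 after 4 h, a sequence of highs and lows like that of its host. IL-4 lowered Mapk14 later and less. Its IL-4 samples held 976, 872 and 805 at 0.5 h, then 849, 800 and 864 at 1 h, then 626, 683 and 670 at 2 h, and finally 666, 706 and 730 at 4 h. Those at 2 and 4 h lay below all untreated samples, with log2 differences of -0.43 (SE 0.08, limma adjusted p = 0.000654) and -0.35 (SE 0.08, limma adjusted p = 0.00377). The call at 4 h was lost without replicate 2 (limma adjusted p = 0.0795) and without replicate 3 (limma adjusted p = 0.0519).

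Mapk11, the p38β gene (chromosome 15, 89142482 to 89149606, minus strand), was near the limit of the table. It held 1, 1 and 3 normalised read counts untreated and 0 to 3 in the 12 IL-4 samples. LPS samples held 2, 3 and 2 at 0.5 h, then 10, 5 and 5 at 1 h, then 6, 13 and 13 at 2 h, and finally 2, 5 and 4 at 4 h. The groups at 1 and 2 h lay above all untreated samples, while those at 0.5 and 4 h overlapped them. The gene entered the tests only because 3 samples at these 2 times reached 10, so no test of its LPS values is read, and the fitted log2 differences of 1.54 and 2.14 also depend on the value of 1 added before the logarithm. For the same reason the log2 ratio of Mapk14 to Mapk11 is given as a description, with means of 8.47 untreated, 6.19 over the LPS samples and 8.52 over the IL-4 samples.

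The JNK genes Mapk8 and Mapk9 were both below untreated at 1 h of LPS, but Mapk9 had its lowest values there and Mapk8 at 2 h. Mapk8 lies on chromosome 14, 33377898 to 33447158, on the minus strand. It held 240, 285 and 292 normalised read counts untreated, 287, 307 and 313 after 0.5 h of LPS, 185, 230 and 231 after 1 h, 90, 110 and 110 after 2 h, and 142, 133 and 124 after 4 h. From 1 h on all LPS samples lay below all untreated ones. The difference was -1.39 at 2 h (SE 0.13, limma adjusted p = 2.05e-07), with a mean of 103 ± 11.5 against 272 ± 28.2, and -1.03 at 4 h (SE 0.13, limma adjusted p = 6.28e-06). At 1 h it was -0.34 (limma adjusted p = 0.0359). With median-of-ratios scaling that value was -0.08 (limma adjusted p = 0.58), and without replicate 2 or replicate 3 it was -0.36 and -0.34 with adjusted p of 0.173 and 0.168. The value of 0.15 at 0.5 h did not pass the test as deposited, became -0.35 with equal totals (limma adjusted p = 0.0318) and 0.40 with median-of-ratios scaling (limma adjusted p = 0.0107), so its direction was not settled.

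Mapk9 lies on chromosome 11, 49846751 to 49886421, on the plus strand. It held 158, 180 and 169 normalised read counts untreated, 84, 104 and 119 after 0.5 h of LPS, 66, 82 and 86 after 1 h, 200, 170 and 164 after 2 h, and 269, 237 and 239 after 4 h. From 1 to 2 h Mapk9 rose while Mapk8 fell by 1.05 on the log2 scale (limma adjusted p = 9.67e-06). In the step before, from 0.5 to 1 h, both fell. At 1 h the log2 difference was -1.11 (SE 0.15, limma adjusted p = 1.28e-05), with a mean of 78.0 ± 10.6 against 169 ± 11. Its rise from 1 to 2 h was 1.18 on the log2 scale (limma adjusted p = 1.11e-05), and at 4 h it stood 0.55 above untreated (SE 0.15, limma adjusted p = 0.00505). With equal totals the excess at 4 h was -0.05 (limma adjusted p = 0.766), and the value at 2 h, 0.07 as deposited, was -0.58 (limma adjusted p = 0.00354).

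The log2 ratio of Mapk8 to Mapk9 lay between 0.60 and 0.79 in untreated samples. It averaged 1.57 ± 0.19 and 1.45 ± 0.03 at 0.5 and 1 h of LPS (SD, n = 3), above that range, and -0.78 ± 0.32 and -0.90 ± 0.06 at 2 and 4 h, below it. Averaged over the 12 LPS samples these deviations cancelled, and the test of the whole course did not pass (difference -0.35, 2-sided exact permutation test, adjusted p = 0.723). Under IL-4 both genes stayed near their untreated values. Mapk8 held 195 to 286 and Mapk9 141 to 197 in the 12 IL-4 samples, no time passed the limma test for either, except 0.5 h for Mapk8 in the blocked fit, and the ratio differed by -0.16 (2-sided exact permutation test, adjusted p = 0.27).

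The ERK3 gene Mapk6 rose quickly with LPS and declined step by step. It lies on chromosome 9, 75386782 to 75410016, on the minus strand. Untreated samples held 92, 100 and 82 normalised read counts, and LPS samples 854, 925 and 796 at 0.5 h, then 613, 506 and 547 at 1 h, then 372, 316 and 340 at 2 h, and finally 189, 216 and 187 at 4 h. No group overlapped the next, and all LPS samples were above all untreated ones. The mean of 858 ± 64.6 at 0.5 h was 9.40-fold that of untreated samples (91.3 ± 9.02), a log2 difference of 3.22 (SE 0.12, limma adjusted p = 8.72e-12). It was 2.59 at 1 h, 1.90 at 2 h and 1.10 at 4 h (limma adjusted p = 9.37e-07 at 4 h). Each step down passed the test, with differences of -0.63, -0.69 and -0.79. Over the IL-4 course Mapk6 held 61 to 120 and was not called (limma F test, adjusted p = 0.277), but at 2 h, where its samples held 80, 71 and 61, the difference of -0.37 (limma adjusted p = 0.174) became -0.45 without replicate 1 (limma adjusted p = 0.0434). The log2 difference between LPS and IL-4 was 3.26 at 0.5 h (SE 0.16, limma adjusted p = 5.45e-14) and 0.99 at 4 h (SE 0.16, limma adjusted p = 9.15e-06).

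Mapk3, the ERK1 gene (chromosome 7, 126759626 to 126765816, plus strand), followed the shape of Mapk14 at lower values. It held 69, 80 and 87 normalised read counts untreated, 29, 45 and 46 after 0.5 h of LPS, 97, 132 and 133 after 1 h, 57, 40 and 33 after 2 h, and 17, 28 and 21 after 4 h. No LPS group overlapped the untreated samples, and only the group at 1 h lay above them. The log2 difference was -0.98 at 0.5 h (SE 0.25, limma adjusted p = 0.00393) and -1.81 at 4 h (SE 0.25, limma adjusted p = 1.25e-05), and values rose by 1.58 from 0.5 to 1 h (limma adjusted p = 9.33e-05). The excess at 1 h, 0.60 (SE 0.25, limma adjusted p = 0.0471), was 0.03 with equal totals (limma adjusted p = 0.934) and did not pass the test without replicate 2 (0.55, limma adjusted p = 0.221) or without replicate 3 (0.60, limma adjusted p = 0.173). At 2 h it was -0.88 (limma adjusted p = 0.00646), with adjusted p of 0.0744 and 0.152 without replicate 2 and without replicate 3.

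Under IL-4 Mapk3 held 46, 36 and 60 normalised read counts at 0.5 h, then 55, 44 and 44 at 1 h, then 46, 57 and 38 at 2 h, and finally 16, 55 and 57 at 4 h. All 12 values lay below the lowest untreated one, yet no time passed the limma test (adjusted p from 0.0516 to 0.217), except 4 h in a fit blocked on replicate number. Replicate 1 at 4 h, at 16, stood below the other IL-4 samples. Without replicate 1 the log2 differences at 0.5, 1 and 2 h were -0.83, -0.91 and -0.83 and passed (limma adjusted p = 0.0382, 0.0203 and 0.026). The log2 ratio of Mapk3 to Mapk6 averaged -0.21 untreated, -3.18 over the LPS samples and -0.95 over the IL-4 samples. Both differences passed the 2-sided exact permutation test (adjusted p = 0.00879 for LPS and 0.0211 for IL-4), but for IL-4 not when samples were permuted within replicate number (adjusted p = 0.128).

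Over the IL-4 course as a whole 3 of the 8 genes changed, Mapk14, Mapkapk2 and Mapkapk3, against 40.3% of tested genes. At every time Mapkapk3 was the 1 gene called higher, with backgrounds of 8.15%, 11.1%, 14.3% and 13.4% at the 4 times in order. None was lower at 0.5 h (background 8.14%), Mapkapk2 at 1 h (background 9.83%), Mapkapk2 and Mapk14 at 2 h (background 13.2%) and Mapk14 at 4 h (background 12.5%). At an unadjusted p below 0.05 limma gave 0 lower at 0.5 h. Between 0.5 and 1 h no gene of the 8 differed (background 7.82%; 3 at an unadjusted p below 0.05 in limma), between 1 and 2 h Mapk14 did (background 9.4%), and between 2 and 4 h none did (background 5.48%; 2 at an unadjusted p below 0.05 in limma). Mapk14 alone differed between 0.5 and 4 h (background 27.3%). With equal totals Mapk14 did not pass there (-0.19, limma adjusted p = 0.0739), while Mapk9 (0.35) and Mapkapk3 (0.28) did. Equal totals moved the share of higher among all called genes from 50.02% to 31.5% at 0.5 h of IL-4, from 53.1% to 39.5% at 1 h, from 42.9% to 59.5% between 1 and 2 h, from 43.7% to 55.3% between 2 and 4 h and from 53.6% to 70.1% between 0.5 and 4 h. Without replicate 1 the count of the 8 called was 3 at 0.5 h (background 21.2%) and 5 at 2 h (background 33.1%), and Mapkapk2 passed at 0.5 h (-0.38, limma adjusted p = 0.0174) and at 4 h (-0.53, limma adjusted p = 0.0018). Without replicate 2 it was 1 over the whole course (background 16.1%), 1 at 1 h (9.39%), 1 at 4 h (11.9%) and 0 between 0.5 and 4 h (11.0%). Without replicate 3 it was 1 at 1 h (background 9.48%) and 1 at 4 h (11.4%).

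Samples of the IL-4 course that carried the same replicate number deviated from their group means together in all 30 pairs (correlation above 0.1), so the counts are also given with the replicate number as a block. With the block 3 of the 8 were called at 0.5 h in place of 1 (background 23.6%), with Mapk8 (-0.25, SE 0.07, limma adjusted p = 0.0233) and Mapkapk2 (-0.31, SE 0.09, limma adjusted p = 0.0248) lower beside Mapkapk3. At 4 h 4 were called in place of 2 (background 35.4%), with Mapkapk2 (-0.44, SE 0.09, limma adjusted p = 0.0021) and Mapk3 (-1.06, SE 0.34, limma adjusted p = 0.0263) added. Between 0.5 and 1 h Mapkapk2 fell by 0.54 on the log2 scale (limma adjusted p = 0.00153, background 15.1%). Between 2 and 4 h Mapkapk2 (0.56, limma adjusted p = 0.00128) and Mapk6 (0.48, limma adjusted p = 0.0366) rose (background 12.4%). Over the whole course 3 were called with and without the block (background 53.3% with it).

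LPS and IL-4 were also compared directly. At 0.5 h Mapk6, Mapk8 and Mapkapk2 were higher with LPS (background 18.0%) and Mapk9 and Mapk14 lower (background 35.8%). At 1 h 6 were higher (background 24.0%) and Mapk9 lower (background 40.5%), and Mapk8 was not called. At 2 h Mapk6, Mapk11 and Mapkapk2 were higher (background 26.4%) and Mapk8, Mapk14 and Mapkapk3 lower (background 42.3%). At 4 h Mapk6, Mapk9, Mapk11 and Mapkapk2 were higher (background 26.1%) and Mapk8, Mapk14 and Mapkapk3 lower (background 41.9%). Mapk11, counted among the higher genes at 1, 2 and 4 h, passed the filter only through LPS samples. Its calls here were thus partly fixed by the filter and are not read. Mapkapk2 differed most, with a log2 difference of 5.32 at 0.5 h (SE 0.28, limma adjusted p = 1.71e-13, means 22020 and 531), rank 46 from the top. The higher calls of Mapk14 at 1 h (0.39) and of Mapk9 at 4 h (0.51) turned to -0.09 and -0.12 with equal totals, and that of Mapk8 at 0.5 h (0.40) to 0.02. The excess of Mapkapk3 at 1 h was 0.12 with equal totals (limma adjusted p = 0.413). Of the other calls, those of Mapk8 at 0.5 h and of Mapk11 at 1 and 4 h were lost without replicate 2 or replicate 3 (limma adjusted p from 0.0698 to 0.332), and those of Mapk14 at 1 h and of Mapk9 at 4 h without replicate 2 (limma adjusted p = 0.0662 and 0.0522). The share of higher among all called genes at 0.5 h was 33.4% as deposited, 19.1% with equal totals and 47.1% with median-of-ratios scaling, and at 4 h 38.4%, 22.6% and 48.4%. At 1 h it was 37.2%, 22.3% and 48.2%, and at 2 h 38.4%, 22.5% and 47.6%. In a fit blocked on replicate number Mapk3 was also called lower with LPS at 4 h (-0.76, SE 0.30, limma adjusted p = 0.0274). The background at 4 h was then 73.1% in either direction.

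Genes whose 9 group means ran most like those of each tested gene were listed by Pearson's r on log2 means over 9 groups, among genes with a mean of at least 50. For Mapkapk2 these were Tnfsf9 (r = 0.997), a ligand of the TNF family, Cybb (0.993), a subunit of the phagocyte NADPH oxidase, and Il1b (0.993), the cytokine IL-1β. For Mapk6 they were Dusp5 (0.988), a phosphatase of ERK, Tagln2 (0.988) and Cdk12 (0.984), a kinase of RNA polymerase II. For Mapk11 they were Tab2 (0.986), an adaptor of Map3k7, Gtdc1 (0.982) and Ly96 (0.978), the co-receptor of TLR4. Mapk11 was near the limit of the table and passed the filter only through LPS samples, so nothing is read from this likeness. Mapk8 was nearest to Elp4 (0.984), R3hdm2 (0.983) and Map3k2 (0.981), and Mapk9 to Ints4 (0.983), Ciz1 (0.983) and Arfip1 (0.981). Mapk14 was nearest to Gcnt1 (0.978), Luc7l2 (0.972) and Pou2f1 (0.969), Mapk3 to Uhrf2 (0.969), Zmym5 (0.938) and Rock2 (0.926), and Mapkapk3 to Ptprs (0.968), Atxn1 (0.938) and Luc7l2 (0.936). The points share their libraries, and among 6155 or 6156 genes compared a high r is a description of shape. Dusp5, for instance, went from a mean of 12.3 untreated to 803 at 0.5 h of LPS, a far larger change than that of Mapk6.

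The rest of the pathway was followed by lists of genes set by role, each read against the backgrounds given above. Of 3 tested genes listed among the other MAP kinases and MAPKAP kinase 5, LPS changed all 3 (background 87.6%). IL-4 changed 0 over its course by the F test in limma (background 40.3%), and 0 at an unadjusted p below 0.05. Mapk7, which encodes ERK5, held 19, 21 and 27 normalised read counts untreated and 12, 11 and 15 after 2 h of IL-4, a log2 difference of -0.77 at that time (SE 0.24, limma adjusted p = 0.0297). It is named here after its values were seen, as the 1 gene of the list called at a single IL-4 time. Nlk, a Nemo-like kinase, fell from 596, 540 and 502 to 150, 146 and 139 at 1 h of LPS (-1.90, SE 0.15, limma adjusted p = 3.37e-08). Mapk4, Mapk12, Mapk13 and Mapk15 stayed at or below 4 in every sample and were not tested.

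Upstream, LPS changed all 7 MAP2K genes and all 18 tested MAP3K genes (background 87.6%), and IL-4 2 and 14 (background 40.3%). Of the MAP2K genes that activate p38, Map2k3 rose from 79, 90 and 117 to 649, 760 and 873 at 1 h of LPS (2.99, SE 0.18, limma adjusted p = 1.51e-09), held 114, 122 and 103 at 2 h (0.26, limma adjusted p = 0.215) and fell below untreated to 49, 57 and 43 at 4 h (-0.92, limma adjusted p = 0.000355). Map2k6 fell from 144, 171 and 180 to 15, 9 and 13 at 1 h (-3.66, limma adjusted p = 8.41e-09) and to 1 in each sample at 4 h (limma adjusted p = 8.74e-12). IL-4 lowered Map2k6 to 66, 59 and 75 at 1 h (-1.30, SE 0.16, limma adjusted p = 5.73e-05), and Map2k2, which changed over the IL-4 course, held 103 ± 13.1 at 4 h against 80.7 ± 7.23 (0.34, limma adjusted p = 0.102 at that time). Among MAP3K genes the largest rise with LPS was that of Map3k6, from 3, 3 and 1 to 41, 36 and 38 at 1 h, and the largest fall that of Map3k9, from 85, 132 and 113 to 8, 9 and 13 at 2 h. At 4 h of LPS 12 of 18 were lower (background 37.6%) and 3 higher (background 25.9%). The median log2 difference was -0.87 against -0.26 for all genes. IL-4 raised Map3k12, the kinase DLK, from 131, 163 and 178 to 460, 501 and 553 at 2 h (1.68, SE 0.14, limma adjusted p = 8.41e-07) and lowered Map3k5, the kinase ASK1, from 824, 935 and 916 to 214, 224 and 228 at 4 h (-2.00, SE 0.09, limma adjusted p = 2.82e-09).

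The MAPK phosphatases, which switch MAP kinases off, leaned upward with LPS. At 0.5 h 6 of 9 tested genes were higher (background 19.6%) and 2 lower (background 34.4%). The median log2 difference was 4.36 against -0.24 for all genes. It was the same with Dusp2, at or under 3 in all untreated samples, put at its bound over 3 counts per library. Dusp2 went from 1 in each untreated sample to 248, 221 and 237 at 2 h of LPS. It passed the filter only through LPS samples, so its LPS calls were partly fixed by the filter and are not read. Dusp6 fell from 17, 19 and 39 to 2, 1 and 2 at 4 h of LPS (limma adjusted p = 1.06e-05). IL-4 changed 6 of 9 (background 40.3%). With IL-4 Dusp4 rose from 9, 7 and 10 to 94, 123 and 113 at 0.5 h (3.53, SE 0.15, limma adjusted p = 6.47e-09). Dusp1 fell from 14, 22 and 39 to 2, 5 and 4 at 4 h of IL-4 (-2.42, SE 0.41, limma adjusted p = 0.000635).

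Among the other kinases that MAP kinases activate, LPS changed all 7 tested (background 87.6%) and IL-4 5 (background 40.3%), all 5 downward at their largest change. Rps6ka4, the chromatin kinase MSK2, rose from 44, 56 and 41 to 201, 187 and 199 at 1 h of LPS (2.05, SE 0.16, limma adjusted p = 3.57e-08), and Mknk2 fell from 115, 117 and 135 to 7, 6 and 3 at 4 h (-4.34, SE 0.32, limma adjusted p = 1.08e-08). Rps6ka5, the kinase MSK1, fell with IL-4 from 684, 981 and 976 to 362, 355 and 345 at 4 h (-1.29, SE 0.17, limma adjusted p = 8.84e-05). Of 8 tested scaffolds and adaptors LPS changed all 8 (background 87.6%) and IL-4 7 (background 40.3%). Spag9, which encodes the JNK scaffold JIP4, rose from 835, 913 and 845 to 6805, 6885 and 6836 at 1 h of LPS (2.98, SE 0.15, limma adjusted p = 1.77e-10). Tab1, the partner of Map3k7, fell from 106, 122 and 120 to 20, 21 and 23 at the same time (-2.39, SE 0.19, limma adjusted p = 3.81e-08). With IL-4 Ksr2 rose from 8, 5 and 12 to 102, 56 and 62 at 4 h (3.01, SE 0.39, limma adjusted p = 6.11e-05) and Ksr1 fell from 197, 215 and 240 to 130, 91 and 94 at 1 h (-1.06, SE 0.13, limma adjusted p = 4.33e-05), both genes of Ras pathway scaffolds.

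Downstream, 12 of 13 transcription factors that MAP kinases phosphorylate changed with LPS (background 87.6%) and 9 with IL-4 (background 40.3%). Ets2 rose from 19, 28 and 24 to 554, 498 and 468 at 0.5 h of LPS (4.38, SE 0.15, limma adjusted p = 4.14e-12) and to 72, 113 and 108 at 0.5 h of IL-4 (1.99, SE 0.20, limma adjusted p = 1.24e-05). Elk3 fell from 347, 378 and 392 to 64, 43 and 43 at 4 h of LPS (-2.90, SE 0.17, limma adjusted p = 5.23e-10), and Fos from 15, 19 and 45 to 1, 4 and 2 at 4 h of IL-4 (-2.98, SE 0.47, limma adjusted p = 0.000348). Of 6 tested substrates and target mRNAs of MK2 and MK3, LPS raised 5 at 0.5 h (background 19.6%) and 4 at 4 h (background 25.9%). The list's median log2 difference at 0.5 h was 2.67, or 2.21 with Il6, which was at or under 3 in all untreated samples, put at its bound. Il6, the cytokine IL-6, went from 0, 1 and 0 to 401, 398 and 366 at 4 h of LPS. It passed the filter only through LPS samples, so its LPS calls were partly fixed by the filter and are not read. Zfp36l1, an RNA-binding protein that promotes mRNA decay, fell from 187, 194 and 207 to 5, 11 and 14 at 2 h of LPS (-4.26, SE 0.32, limma adjusted p = 1.18e-08). With IL-4 Zfp36l1 was the 1 gene of this list that changed (background 40.3%), from 196 ± 10.1 to 320 ± 15.5 at 4 h (0.71, SE 0.15, limma adjusted p = 0.00353).

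**Figure D4:**
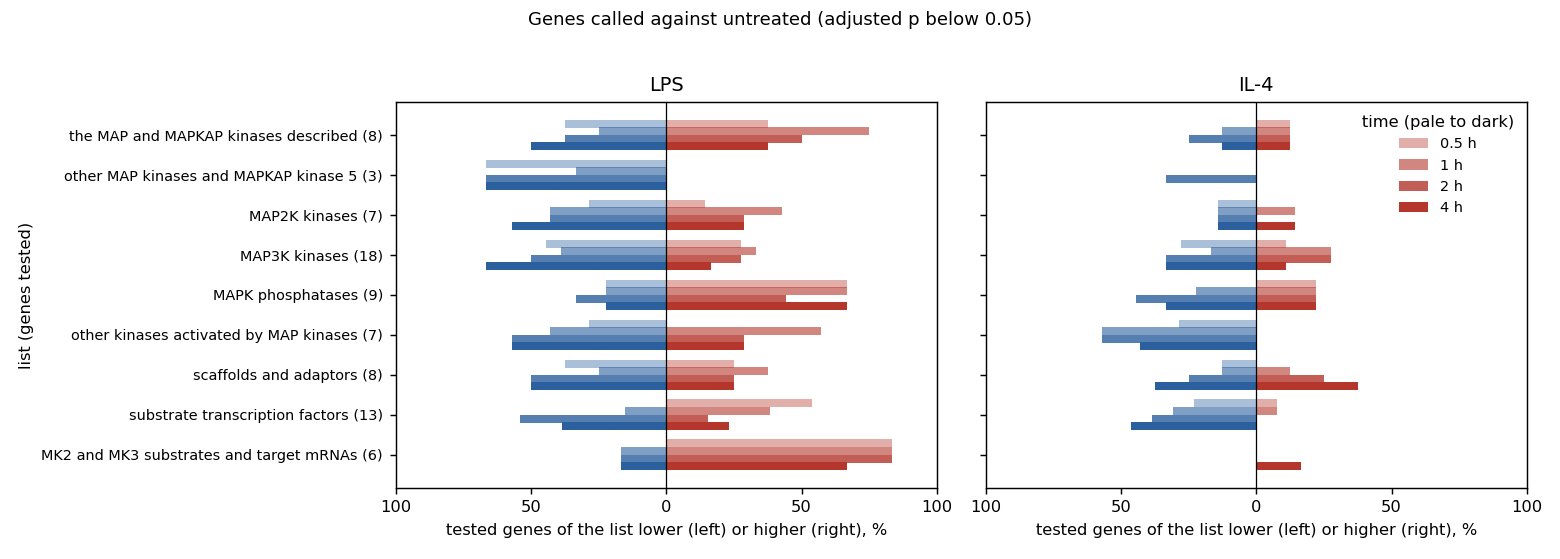
Share of the tested genes of each list (rows, number tested in brackets) called lower (bars to the left) or higher (to the right) than the 3 untreated samples at each of 4 times (pale to dark) of LPS or IL-4, at an adjusted p below 0.05 in limma. With LPS the MAPK phosphatases and the MK2 and MK3 substrates and targets lean to the right at 0.5 h. There 6 of 9 and 5 of 6 genes are higher, against 19.6% of all tested genes. Dusp2 and Il6, counted among these higher genes, passed the filter only through LPS samples. The MAP3K kinases lean to the left at 4 h of LPS, with 12 of 18 lower, against 37.6% of all tested genes.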

How the data were processed

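Chromatin-associated RNA of mouse BMDMs was sequenced from random-primed Smart-seq2 libraries on a NextSeq500 instrument. Per the labels and the study's methods, the authors aligned reads with TopHat2 (version 2.1.1) to mm10, removed multi-mapping and blacklisted reads with samtools and bedtools (2.29.2), counted reads per gene with R packages on GRCm38.p6 annotation and scaled the counts on invariant genes with their GeneralNormalizer method. The submitters' processing notes also name DESeq2 and R (3.6.2), with no role. Whether exons or whole genes were counted, and whether strand was used, is not given in the sources used here. The authors deposited a score, namely this normalised read count after scaling, as whole numbers. It is not a raw count, so no count model was fitted and the depth per sample is unknown. The study tested its time courses with ImpulseDE2, which was not run here.

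Values were analysed as log2(value + 1) with limma (3.58.1, trend option) in R (4.3.3), over 13901 of 45070 genes with at least 10 in at least 3 of 27 samples, with Benjamini-Hochberg adjustment and a threshold of 0.05. Each course was fitted on its 15 samples (an F test and contrasts) and LPS against IL-4 on all 27. Fold changes understate low genes. Ratios of related genes were compared between 3 untreated and 12 stimulated samples by 2-sided exact permutation tests in Python (3.11.15, scipy 1.17.1), adjusted over 8 tests. The scripts were tested on simulated data. All 9 genes were named, with the 3 genes of most similar pattern for each and the largest rise and fall among called genes of each pathway list. The genes and lists were chosen with earlier results of these data known. Results of 1 gene of the pathway lists are not reported here, and it is in none of their counts. Alternatives were a pseudocount of 8, no filter, a mean of at least 50, median-of-ratios scaling, equal totals, a replicate block, leaving out each replicate, averaging replicates 2 and 3, and 1 fit of all samples. Same-numbered samples correlated in their deviations from group means above 0.1 in 30 of 30 pairs of the IL-4 course (lowest 0.207), where the numbers were taken as a pairing, and in 29 of 30 of the LPS course (lowest 0.0897), where they were not. Fits without the block were kept as the main ones.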

Additional observations from a re-analysis of the deposited data

Results flagged for a closer look

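Time points of 1 course differed from each other in these genes by a limma test of the difference itself (n = 3 per group, adjusted p below 0.05). After LPS the 4 h level minus the 0.5 h level, on the log2 scale, was -0.83 for Mapk3, -2.12 for Mapk6, -1.18 for Mapk8, 1.28 for Mapk9, -1.98 for Mapk14, -1.67 for Mapkapk2 and -3.28 for Mapkapk3. Mapk9 was thus the 1 gene of these 7 that rose. After IL-4 it was -0.33 for Mapk14, which did not pass with equal totals.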

How the results depend on the processing

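Of 1012 recomputed fold changes of single genes, 931 kept their side of the threshold and, where called, their direction. A change of sign between 2 values that were both not called is counted among these. Of the rest, 47 lost a call, 26 gained one and 8 changed sign with a call in at least 1 of the 2 fits. All 8 arose with libraries rescaled to equal totals. Those 8 were Mapk8 at 0.5 h of LPS (-0.35), Mapk9 at 2 h (-0.58) and 4 h (-0.055), Mapk14 at 1 h (-0.28) and Mapkapk3 at 2 h (-0.0098), and, for LPS against IL-4, Mapk9 at 2 h (-0.58) and 4 h (-0.12) and Mapk14 at 1 h (-0.090). The cause was not tested.

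Of the members, 3 changed over the IL-4 course, and 1 to 4 with 1 replicate left out. The background was 40.3%, and 47.1%, 16.1% and 15.6% without replicates 1, 2 and 3 in order. With 1 replicate left out the counts called were 5 to 8 at 1 h of LPS, 4 to 7 between 0.5 and 1 h, and 3 to 7 between 2 and 4 h. The backgrounds were then 49.4% to 67.3%, 33.2% to 55.3% and 8.02% to 31.6%. For IL-4 against untreated the counts were 1 to 3 (background 5.56% to 31.4%) except after 2 h, where 2 to 5 were called (13.4% to 33.1%). In each comparison between IL-4 times 0 to 1 were called (0.0791% to 35.5%). With replicates 2 and 3 averaged 5 were called at 1 h of LPS (background 52.8%), 5 between 0.5 and 1 h (36.9%) and 3 between 2 and 4 h (9.88%). For IL-4 1 was then called at 1 h (10.4%), 1 at 4 h (13.3%) and 0 between 1 and 2 h (1.68%). With equal totals 2 were called at 0.5 h of IL-4 (background 21.4%) and 2 between 0.5 and 4 h (33.6%), and without a filter 1 at 1 h (8.2%).

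Same-numbered samples correlated above 0.1 in 106 of 108 pairs of deviations over both courses (median 0.308, against -0.309 for different numbers), in all 30 pairs of the IL-4 course and in 29 of 30 of the LPS course. Of the 27 samples, 19 correlated best with their own number. In a fit with a replicate block, the IL-4 counts were 3 at 0.5 h (background 23.6%) and 4 at 4 h (35.4%). They were 1 between 0.5 and 1 h (15.1%) and 2 between 2 and 4 h (12.4%). Permuted within replicate number, the Mapk3 to Mapk6 difference of -0.74 with IL-4 had an exact permutation adjusted p of 0.128. The block gave 5 of 96 single-gene values a call and took none away, the LPS step of Mapkapk2 from 1 to 2 h (adjusted p = 0.0392) and of Mapk8 from 2 to 4 h (adjusted p = 0.0239) passed with it, and in 3 IL-4 comparisons over all genes it moved calls from between 762 and 1306 to between 1726 and 2319.

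With 1 replicate left out, 2 untreated samples faced 8 stimulated ones and no ratio passed the exact permutation test. With so few samples the adjusted test could pass only if all 8 ratios reached its smallest p, so nothing is read from that. The differences were -2.60 to -2.05 for Mapk14 to Mapk11, 3.67 to 3.81 for Mapkapk2 to Mapkapk3 and -3.10 to -2.85 for Mapk3 to Mapk6 with LPS, and -1.78 to -1.66 for Mapkapk2 to Mapkapk3 and -0.91 to -0.58 for Mapk3 to Mapk6 with IL-4. Over all genes, a mean of at least 50 moved 7 of 9 LPS counts from 6906 to 12174 down to 4278 to 6504, and 4 of 4 against IL-4 from 7485 to 9542 down to 4266 to 5294, with fewer genes tested. IL-4 counts of 762 to 5606 became 11 to 2234 without replicate 2, 32 to 2169 without replicate 3 and 36 to 2495 with both averaged, and those of 762 to 1087 became 1402 to 1930 without replicate 1, 425 to 628 with all samples in 1 fit and 468 to 722 without a filter. The LPS count between 2 and 4 h, 3190, was 1221 and 1115 without replicate 2 and 3, and 1373 with them averaged. Without raw counts, the depth behind the low values of Mapk10, Mapk11 and Mapk3 is unknown.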

Other observations

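Genes next to the kinase genes, named after their values had been seen, gave the following normalised read counts. Gdpd3, which lies 597 bases beyond Mapk3, held 46, 57 and 55 untreated, 8, 10 and 14 after 0.5 h of LPS (limma adjusted p = 0.000419), 22, 74 and 54 after 1 h and 3, 10 and 9 after 4 h, so that it was low at the times at which Mapk3 was low. Reads that run past the end of Mapk3 cannot be told apart from Gdpd3 transcripts here.

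The gene 4933433G15Rik, which starts 168 bases from Mapk6 in the other direction, held 3, 2 and 7 untreated and 13, 12 and 12 after 0.5 h of LPS, when Mapk6 was highest. It passed the filter only through LPS samples, so no test of its rise is read. Cish, an inhibitor of cytokine signalling that lies 6.78 kb from Mapkapk3 in the other direction, held 1, 5 and 1 untreated. After LPS it held 113, 168 and 209 at 1 h, then 296, 523 and 482 at 2 h, and finally 27, 19 and 22 at 4 h. After IL-4 it held 54, 32 and 48 at 0.5 h and then 193, 284 and 284 at 4 h. Like Mapkapk3 it was above untreated throughout IL-4 and fell between 2 and 4 h of LPS, but unlike Mapkapk3 it was still above untreated at 4 h of LPS.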
